A study of Mus musculus with 4 samples.

Results

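Stmn2, Angptl2 and Igfbp7 are 3 of the 31053 genes counted in immune cells of the mouse lung, and each was found in few cells. The 3 genes were chosen by their measured counts, because earlier results of these data showed them in rare cells and at unequal levels between libraries. Their levels in each library, and the genes found beside them in the same cells, are therefore given as descriptions with no test. Of 28805 cell barcodes in 4 libraries, 59 held at least 1 unique molecular identifier (UMI, a tag that counts 1 captured RNA molecule) of Stmn2, 147 of Angptl2 and 157 of Igfbp7.

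The cells came from C57BL/6 mice with floxed Ift20 alleles, either Ift20 f/f (WT) or Ift20 f/f CD4 cre (KO). Both genotypes carry the floxed alleles, and only the KO carries the Cre, which is driven by Cd4 and acts in developing T cells, including those that later become CD8 T cells. Mice received papain, a plant cysteine protease used as an inhaled allergen, or the buffered saline DPBS. Papain was given into the nose at 25 µg on 3 days in a row and again on day 14, and the lungs were taken on day 15. Live cells were sorted as CD45.2-positive and 7-AAD-negative, and 1 library was made for each of the 4 groups, named by treatment and genotype (Papain WT and Papain KO, DPBS WT and DPBS KO). The labels state neither the mouse ages nor how many mice went into a library. With 1 library per group, no difference below has a replicate check, and all intervals cover counting error only.

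STMN2 is a stathmin, a protein that binds tubulin and lets microtubules shrink, and it is best known from growing neurons. ANGPTL2 is a secreted angiopoietin-like protein that binds integrins and the inhibitory receptor PIRB and is known from inflamed fat tissue, vessels and macrophages. IGFBP7 is a secreted protein that binds insulin-like growth factors weakly and is known from endothelial and stromal cells, where it meets the receptor CD93. None of these is a usual marker of a blood cell, and the CD45.2 gate selects blood cells.

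Stmn2 (ENSMUSG00000027500) is a plus-strand gene of chromosome 3 (8509360 to 8561606 in the GENCODE M21 annotation of GRCm38), and no other annotated gene overlaps it. Angptl2 (ENSMUSG00000004105) is a plus-strand gene of chromosome 2 (33216069 to 33247717), wholly inside Ralgps1, which is on the minus strand. Igfbp7 (ENSMUSG00000036256) is a minus-strand gene of chromosome 5 (77349240 to 77408041) and shares 85 bases at its 3′ end with the end of Polr2b, which is on the plus strand. Gm34648, also on the plus strand, overlaps Igfbp7 by 7085 bases and had 0 UMIs in all kept cells. Whether the counting used strand is not given in the sources used here, so reads of each gene and its partner might not be told apart. Ralgps1 was at 3.38 UMIs per 1000000 UMIs (CPM) in T cells with Angptl2 and at 4.56 CPM in T cells without it. Polr2b, a subunit of RNA polymerase II, was at 33.5 CPM in T cells with Igfbp7 and at 21.2 CPM in T cells without it.

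The files hold 53854420 to 75675956 UMIs per library. After filters on genes, mitochondrial UMIs and doublets, 25831 cells remained, between 5421 and 7559 per library, with library medians of 5827 to 6678 UMIs. Of these, 34.2% were called T cells, 29.9% B cells and 15.97% alveolar macrophages from their marker genes. Between 27 and 39 barcodes of a library also occurred in another library, and none of them was a kept cell with a UMI of the 3 genes. Ift20, the targeted gene, was measured in T cells of Papain WT at 59.5 CPM (95% exact Poisson interval 56.1 to 63.0) and of Papain KO at 20.4 (18.3 to 22.7), while DPBS WT had 56.8 (53.5 to 60.3) and DPBS KO 20.8 (18.4 to 23.5). The deleted exons are not at the 3′ end that this method reads, so these levels do not measure the deletion itself. Over both treatments, Ift20 in the T cells with Stmn2 was at 81.2 CPM in WT and 44.0 (25.6 to 70.5) in KO. In T cells with Angptl2 it was at 74.6 and 29.95 CPM (KO interval 15.0 to 53.6), and in those with Igfbp7 at 80.5 and 4.43 CPM (0.112 to 24.7), the last from 1 UMI.

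The filters left 53 of the 59 Stmn2 barcodes, 126 of the 147 Angptl2 barcodes and 130 of the 157 Igfbp7 barcodes. Barcodes called doublets made up 10.2% of those with Stmn2, 12.9% of those with Angptl2 and 11.5% of those with Igfbp7, against 5.95% of all barcodes. For Igfbp7, 5 of 22 barcodes in Papain KO were removed as doublets and 5 of 98 in Papain WT.

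**Figure D1:**
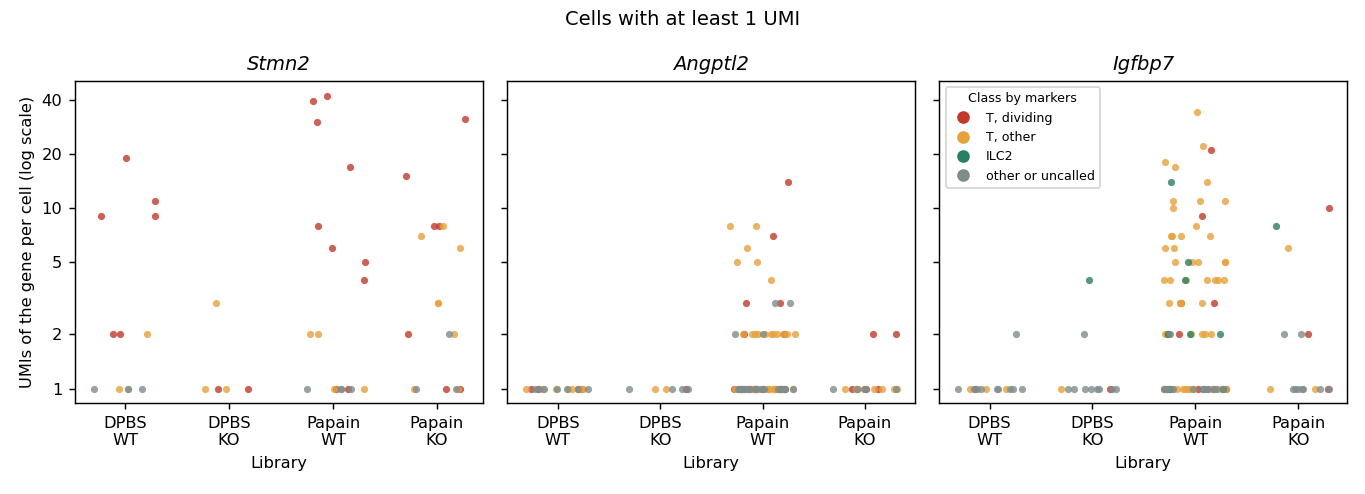
UMIs of each gene in every kept cell that had any (y axis, log scale), by library (x axis); each point is 1 cell, coloured by its class from marker genes, with the dividing T cells apart. The Stmn2 points above 8 UMIs are all dividing T cells in DPBS WT, Papain WT and Papain KO, while the points of Angptl2 and Igfbp7 above 2 UMIs lie mostly in Papain WT.

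Stmn2 was found almost wholly in T cells and reached high counts in a handful of them. The 53 cells held 330 UMIs, of which 96.7% were in 43 T cells. T cells were 81.1% of the cells with Stmn2 (95% exact binomial interval 68.0% to 90.6%), against 34.2% of all kept cells. In DPBS WT 12 cells held 59 UMIs, and the highest held 19, 11, 9 and 9. In DPBS KO 5 cells held 7 UMIs, with 3 in the highest. In Papain WT 18 cells held 163 UMIs, with 42, 39, 30 and 17 in the highest. In Papain KO 18 cells held 101 UMIs, with 31 and 15 in the highest. All 22 cells with at least 3 UMIs were T cells. The other 10 cells, which were alveolar macrophages, monocytes, B cells, a neutrophil and an uncalled cell, held 1 UMI each except for 1 alveolar macrophage with 2.

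For Stmn2 in T cells, Papain WT had 8.03 CPM (6.83 to 9.38) and Papain KO 5.85 (4.74 to 7.13), while DPBS WT had 2.95 (2.23 to 3.84) and DPBS KO 0.557 (0.224 to 1.15). The share of T cells with a UMI was 0.566% for Papain WT, 0.768% for Papain KO, 0.336% for DPBS WT and 0.287% for DPBS KO, and the 4 exact binomial intervals overlapped. The levels thus differed between libraries more than the shares did. In B cells, which should lack the gene and stand for free RNA, 2 of 7731 cells held a UMI (0.0259%), at a median of 4315 UMIs per cell against 6455 in T cells. No UMI was found in 380 natural killer cells, 217 group 2 innate lymphoid cells (ILC2), 379 interstitial macrophages, 209 conventional or 113 mature dendritic cells.

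Most T cells with Stmn2 were dividing, called here from UMIs of at least 3 of the cycle genes Mki67, Top2a, Birc5 and Pclaf. Of the 43 T cells, 25 were dividing (58.1%, 42.1% to 73.0%), against 2.42% of the 8800 T cells without Stmn2. By library they were 10 of 14 (Papain WT), 7 of 15 (Papain KO), 6 of 9 (DPBS WT) and 2 of 5 (DPBS KO). Dividing cells hold more RNA, and the T cells with Stmn2 had a median of 20550 UMIs, against 6443.5 in the others. Per UMI captured, Stmn2 was at 40.9 CPM (36.2 to 46.1) in dividing T cells and at 0.751 (0.550 to 1.00) in the rest.

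The Stmn2 cells also often carried the genes of interleukin-17, the cytokine of type 17 T cells. Il17a or Il17f was found in 18 of 43 (41.9%), against 1.41% of T cells without Stmn2. The papain libraries held 16 of the 18, with 7 of 14 for Papain WT and 9 of 15 for Papain KO, while DPBS WT had 1 of 9 and DPBS KO 1 of 5. In DPBS WT the Il17a level was 7.60 CPM with Stmn2 and 5.62 CPM without. Thinned to 1000 UMIs per cell, the shares were 18.6% and 0.564%. The Il17a counts were not spread evenly, since 150 of the 312 Il17a UMIs of the Stmn2 cells came from 1 cell. Dividing T cells with an interleukin-17 gene held the highest level, 187 CPM (160 to 217), with Stmn2 in 9 of 28 cells. Those with an interleukin-17 gene that were not dividing stood at 29.0 CPM, dividing T cells without one at 18.03 CPM, and T cells with neither at 0.282 CPM. The 4 states kept this order in Papain WT apart from the middle pair, which stood at 5.65 and 13.9 CPM, while in DPBS WT none of 5 dividing cells with an interleukin-17 gene held Stmn2.

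The Cd4, Cd8 and Trdc counts of these few T cells varied between libraries. Only Cd4, and no Cd8a or Cd8b1, was found in 9 of 9 Stmn2 T cells in DPBS WT and in 13 of 14 in Papain WT. In Papain KO it was 7 of 15, and 6 others held only Cd8 genes. All 6 Cd8-only cells with Stmn2 were from Papain KO, where they were 6 of 837 such cells (0.717%, 0.263% to 1.55%), against 0 of 742 in Papain WT, which allows a share of up to 0.404% and so overlaps that interval. Trdc, the constant segment of the delta T cell receptor chain, was found in 4 of the 15 Papain KO cells, which held 48 of the 97 UMIs, and in none of the Stmn2 T cells of the other 3 libraries. For the Cd4-only, Cd8-only and Trdc shares of the Stmn2 T cells, the intervals of both papain libraries overlapped.

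Stmn1, the stathmin of dividing cells, had another pattern than Stmn2. Stmn1 was at 1315 CPM in 238 dividing T cells, 1239 CPM in 28 dividing B cells, 1294 CPM in 226 dividing alveolar macrophages and 1934 CPM in 11 dividing natural killer cells. Stmn2 had 273 UMIs in the dividing T cells and none in the other dividing cells, which gives an upper Poisson limit of 0.610 CPM for the alveolar macrophages, 4.31 for the B cells and 17.9 for the natural killer cells. Within dividing T cells, Stmn1 was at 1077 CPM in those with Stmn2 and at 1347 CPM in those without. Of the other stathmins, Stmn3 had 2 UMIs and Stmn4 had 16 in all kept cells. Of 10 neuron and neuroendocrine markers, 7 were at 0 UMIs in the 53 Stmn2 cells, and the list was at 44.6 CPM there against 8.04 CPM in other kept cells. Several of the 7 are near 0 in all kept cells, with Snap25 at 0 and Gap43 and Chga at 1 UMI. The 50 marker UMIs that were found came from Calca (34), Tubb3 (10) and Uchl1 (6) in 8 cells, and no cell held 3 of these markers. Among the T cells with Stmn2, 1 cell held Calca. The part of these markers in the Stmn2 levels was not tested.

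Angptl2 was a gene of 1 or 2 UMIs per cell in more than 1 cell type. The 126 cells held 200 UMIs, 97 of the cells held a single UMI, and the highest held 14. In DPBS WT 19 cells and in DPBS KO 7 cells held 1 UMI each. In Papain WT 82 cells held 154 UMIs, with 14, 8, 8 and 7 in the highest. In Papain KO 18 cells held 20 UMIs, with at most 2 in a cell. Every cell with at least 3 UMIs was thus in Papain WT, and 10 of those 12 cells were T cells.

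T cells were 86 of the 126 cells (68.3%, 59.4% to 76.3%) and held 77.0% of the UMIs. Monocytes gave 23 cells and interstitial macrophages 8. Over the 4 libraries the level was 2.27 CPM (1.92 to 2.66) in T cells, 2.18 (1.04 to 4.003) in interstitial macrophages and 1.14 (0.740 to 1.69) in monocytes, so the first 2 did not differ beyond their intervals. The order of the pooled levels rests on Papain WT, since the median over libraries was 0.769 CPM in T cells, 1.95 in interstitial macrophages and 0.822 in monocytes. No UMI was found in 7731 B cells, which gives an upper Poisson limit of 0.0865 CPM for free RNA of this gene there, nor in 217 ILC2 or 380 natural killer cells. In B cells of Papain WT alone, the library with the most Angptl2, the limit was 0.272 CPM.

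For Angptl2 in T cells, Papain WT had 6.27 CPM (5.21 to 7.47) and Papain KO 0.904 (0.506 to 1.49), while DPBS WT had 0.633 (0.327 to 1.11) and DPBS KO 0.239 (0.0492 to 0.697). The shares of T cells with a UMI had the same order, 2.34%, 0.666%, 0.448% and 0.172%. Papain WT stood apart from the other 3 libraries, whose intervals overlapped. In monocytes the level was 1.96 CPM (1.07 to 3.28) in Papain WT and between 0.603 and 1.03 CPM in the other 3, with intervals that overlapped.

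In Papain WT the T cells with Angptl2 often held Foxp3, the transcription factor of regulatory T cells. Over all libraries Foxp3 was found in 37 of 86 (43.0%, 32.4% to 54.2%), against 3.93% of T cells without Angptl2. Thinned to 1000 UMIs it was in 14.9% against 1.30%. By library the counts were 33 of 58 (Papain WT), 2 of 13 (Papain KO), 2 of 12 (DPBS WT) and 0 of 3 (DPBS KO). Thinned shares with and without Angptl2 were 20.5% and 2.24% in Papain WT, and 1.37% and 1.12% in Papain KO. In DPBS WT they were 5.86% and 0.864%. The T cells with Angptl2 were deeper, with a median of 12636.5 UMIs against 6440. Of the T cells with Foxp3, those with Angptl2 were 33 of 185 (17.8%, 12.6% to 24.1%) for Papain WT and 2 of 75 (2.67%, 0.325% to 9.30%) for Papain KO. For DPBS WT they were 2 of 79, and for DPBS KO 0 of 42, which allows up to 7.14%. Median depth of the Foxp3 cells was alike, 7735 UMIs for Papain WT and 7758 for Papain KO. Angptl2 in these Foxp3 cells was at 33.8 CPM (26.6 to 42.4) for Papain WT and 2.28 CPM for Papain KO. Within the Papain WT Foxp3 cells, Angptl2 was in 22 of 97 that also held Il1rl1, which encodes the interleukin-33 receptor ST2, and in 11 of 88 that did not, with overlapping intervals (14.8% to 32.3% and 6.41% to 21.3%). In Papain KO it was in 0 of 20 cells with both genes, which allows up to 15%. T cells of Papain WT with Il1rl1 but no Foxp3 held it in 4 of 102.

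The T cells with Angptl2 were of several kinds, which overlap. Dividing cells were 23 of the 86 (26.7%) against 2.46% of T cells without it, and 11 of the 23 also held Foxp3. Interleukin-17 genes were in 12 (14.0%) against 1.49%. In Papain WT the level of Angptl2 in T cells with an interleukin-17 gene was 32.2 CPM (21.3 to 46.9), which did not differ from that in Foxp3 cells beyond the intervals. In Papain KO, where 13 T cells held Angptl2, interleukin-17 genes were found in 3 and Foxp3 in 2.

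Other angiopoietin-like genes had patterns of their own. Angptl4, a lipoprotein lipase inhibitor, had 11666 UMIs, 95.5% of them in alveolar macrophages. Angptl6 had 507 UMIs, of which 38.7% were in T cells. Angptl1, Angptl7 and Angptl8 had 20, 21 and 1 UMIs, and Angptl5 was not listed. Of the genes for receptors of ANGPTL2, Pirb was highest by UMIs in alveolar macrophages (44.2% of 22799), as were Itga5 (66.0% of 4473) and Itgb1 (45.2% of 38319). The integrin gene Itgb1 was at 293 CPM in T cells with Angptl2 and at 110 CPM in those without.

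Igfbp7 was found at its highest counts in T cells and ILC2 of Papain WT, and in few cells of the other libraries. The 130 cells held 454 UMIs. In DPBS WT 14 cells held 15 UMIs, with 2 in the highest. In DPBS KO 12 cells held 16 UMIs, with 4 in the highest. In Papain WT 88 cells held 383 UMIs, with 34, 22, 21, 18 and 17 in the highest. In Papain KO 16 cells held 40 UMIs, with 10, 8 and 6 in the highest. Of the 44 cells with at least 3 UMIs, 39 were T cells and 5 were ILC2.

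T cells were 77 of the 130 cells (59.2%, 50.3% to 67.8%) and held 79.96% of the UMIs. The pooled level was highest in ILC2, at 29.7 CPM (21.6 to 39.9), followed by T cells at 5.35 (4.81 to 5.92) and conventional dendritic cells at 1.75 (0.704 to 3.61). Each of the other named types with at least 100 cells was under 1 CPM. Alveolar macrophages gave 16 cells with 17 UMIs, 0.222 CPM, at 0.170 to 0.259 CPM in the 4 libraries. In B cells 4 of 7731 held a UMI (0.117 CPM, 0.0381 to 0.274), and this interval overlapped that of the alveolar macrophages (0.129 to 0.356). B cells of Papain WT alone were at 0.222 CPM (0.0457 to 0.647).

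For Igfbp7 in T cells, Papain WT had 16.98 CPM (15.2 to 18.9) and Papain KO 1.27 (0.784 to 1.94), while DPBS WT had 0.211 (0.0575 to 0.540) and DPBS KO 0.159 (0.0193 to 0.574). The shares of T cells with a UMI were 2.63%, 0.307%, 0.149% and 0.115% in that order. Papain WT lay above the other 3 libraries in level and in share, and Papain KO lay above both DPBS libraries in level while its share overlapped theirs. The 21 UMIs in T cells of Papain KO came from 6 cells, and 16 of them from 2 cells.

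**Figure D2:**
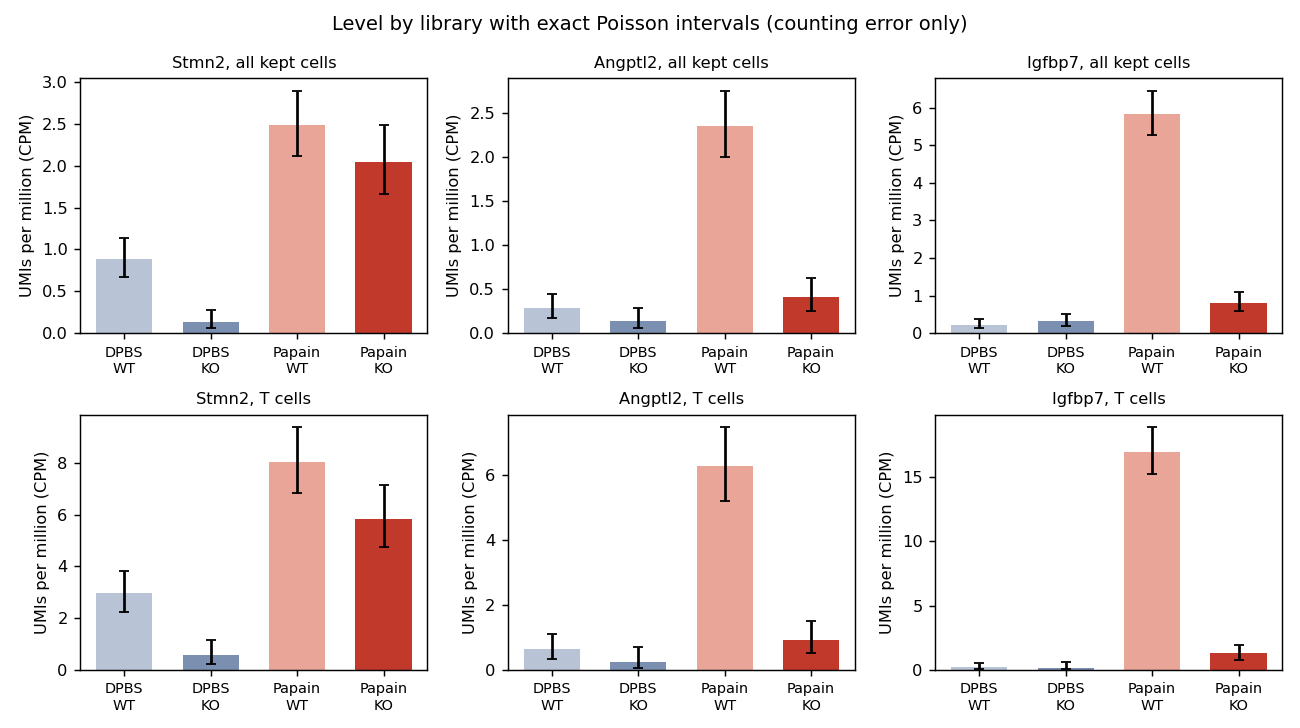
Level of each gene (y axis, CPM) by library (x axis) in all kept cells (top row) and in T cells (bottom row); bars start at 0 and lines are 95% exact Poisson intervals. Stmn2 is high in both papain libraries, whereas Angptl2 and Igfbp7 are high in Papain WT, at 6.27 and 16.98 CPM in T cells, and low in Papain KO, at 0.904 and 1.27 CPM.

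The Igfbp7 T cells carried type 2 genes. Il4, Il5 or Il13, the cytokine genes of type 2 helper T cells, were found in 27 of 77 (35.1%, 24.5% to 46.8%) against 0.730% of T cells without Igfbp7, and in 15.3% against 0.164% after thinning. Il1rl1 was found in 47 (61.0%) against 2.61%. Gata3, the transcription factor of type 2 cells, was found in 68 (88.3%) against 28.2%. Within Papain WT alone these shares were 41.5% against 1.70%, 66.2% against 6.47% and 92.3% against 35.4% in that order. Median depth was 12016 UMIs with Igfbp7 and 6439.5 without. Only Cd4 was found in 60 of the 77, and only Cd8 genes in 3.

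All 27 of those type 2 cytokine cells were in Papain WT. There Igfbp7 was found in 27 of 68 T cells with a type 2 cytokine gene (39.7%, 28.03% to 52.3%), with 214 UMIs or 238 CPM. In Papain KO it was found in 0 of 11 such cells, which allows a share of up to 27.3%, and in DPBS WT and DPBS KO in 0 of 7 and 0 of 5, which allow up to 42.9% and 60%. The exact binomial interval of the Papain KO share reached 28.49% and overlapped that of Papain WT. Median depth of these cells was 10426 UMIs in Papain KO and 10646 in Papain WT. Of 37 Papain WT T cells with both a type 2 cytokine gene and Il1rl1, 23 held Igfbp7 (62.2%, 44.8% to 77.5%), and Papain KO had 2 such cells. T cells with Il1rl1 and no Foxp3 held it in 33 of 102 in Papain WT (32.4%, 23.4% to 42.3%) and in 1 of 13 in Papain KO (7.69%, 0.195% to 36.0%), which are intervals that overlap. T cells with Foxp3 held it in 13 of 185 in Papain WT (7.03%). Papain KO also had fewer T cells with a type 2 cytokine gene, 11 of 1952 against 68 of 2475.

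ILC2, innate cells that make the same type 2 cytokines, held Igfbp7 as well. In Papain WT 9 of 64 ILC2 held 32 UMIs (14.1%, 6.64% to 25.0%). In Papain KO 1 of 67 held 8 UMIs (1.49%, 0.0378% to 8.04%). In DPBS KO 1 of 38 held 4 UMIs, and in DPBS WT none of 48 did, which allows up to 6.25%. The shares of both papain libraries overlapped in their intervals. Levels were 55.99 CPM (38.3 to 79.0) for Papain WT and 18.6 (8.02 to 36.6) for Papain KO. The Papain KO level rests on 1 cell, as does that of DPBS KO, 17.4 CPM (4.74 to 44.55). Poisson intervals take UMIs as independent, so they cannot tell these levels apart. Of the 9 Papain WT cells, 7 held Il13 and 7 held Il5, and 1 held a UMI of Cd3e or Trac, the T cell genes that ILC2 should lack. Their median depth was 11935 UMIs, against 5830 in the other 55 ILC2 of that library, of which 14 held Il13 and 13 held Il5. Both cytokine genes are also among the markers that call ILC2, so holding them is in part fixed by the class.

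**Figure D3:**
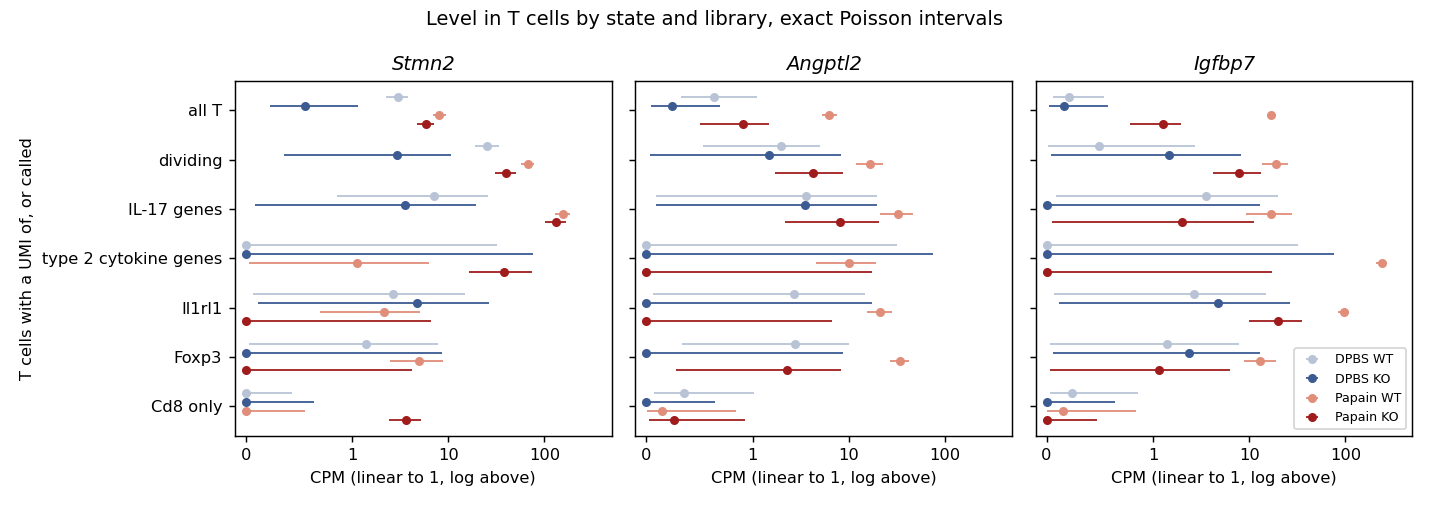
Level of each gene (x axis, CPM, linear to 1 and logarithmic above) in T cells called by state or by a UMI of the named genes (y axis), with 1 colour per library and lines for 95% exact Poisson intervals. Stmn2 is highest in cells with interleukin-17 genes in both papain libraries (155 and 130 CPM), Angptl2 in Foxp3 cells and interleukin-17 cells of Papain WT (33.8 and 32.2 CPM) and Igfbp7 in type 2 cytokine cells of Papain WT (238 CPM).

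By cell type, other genes of the insulin-like growth factor axis had their own patterns. Some were also higher in Papain WT than in Papain KO. Over all kept cells, Igfbp6 was at 7.17 CPM in Papain WT and 2.82 in Papain KO, and Igf1 at 20.96 and 7.7. Cd93 stood at 39.3 and 18.35 CPM and Igf2r at 15.3 and 13.4. Igf1r, at 14.8 and 15.0 CPM, Insr, at 20.2 and 20.5, and Igfbp4, at 88.3 and 115, were not higher in Papain WT. Igfbp4 was the main binding protein gene of T cells, with 22789 of its 23594 UMIs there and 275 to 396 CPM in the T cells of the 4 libraries. Igfbp6 had 709 UMIs, 60.8% of them in neutrophils, and Igfbp1, Igfbp2, Igfbp3 and Igfbp5 had 0, 8, 1 and 1. Igf1, the growth factor, had 3111 UMIs, 79.3% of them in alveolar macrophages, and Igf2 had none. Igf1r was at 5.86 CPM in T cells with Igfbp7 and at 13.6 CPM in those without. Cd93, the receptor that IGFBP7 binds on endothelial cells, had 5814 UMIs, 48.5% of them in alveolar macrophages, and 1 T cell with Igfbp7 held a UMI of it.

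Non-immune marker lists were checked in the cells with each gene, since all 3 are known outside the blood. Mesothelial markers were at 0 in all 3 sets of cells. Of 6 fibroblast markers, 5 were at 0 in the Stmn2 cells, 4 in the Angptl2 cells and 3 in the Igfbp7 cells, and the 7 endothelial markers held 31.2, 55.1 and 50.2 CPM in these sets against 52.0 to 52.2 CPM in other kept cells. Of those 7 markers, 3 were at 0 in the Stmn2 cells and 1 in each of the other sets, and 1 Igfbp7 cell held at least 3 of them. The fibroblast list was at 8.92 CPM in the Igfbp7 cells against 0.788 in other cells, with 17 of its 19 UMIs from Mgp, and its part in the Igfbp7 levels was not tested. The neuron and neuroendocrine list was at 61.0 CPM in the Igfbp7 cells against 7.73 in other cells, with 114 of 130 UMIs from Calca. Over all kept cells this peptide gene had 63.7% of its UMIs in ILC2. In T cells, Calca was at 86.2 CPM in those with Igfbp7, of which 9 held it, and at 1.87 CPM in those without.

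The genes that differed most between T cells with and without each gene were ranked by the log2 ratio of pooled CPM with 10 CPM added to both. Beside Stmn2 they were Il17a at 323 against 11.7 CPM, 1500009L16Rik, Ccnb2, Ube2c, Lgals1, Birc5, Pclaf, Rrm2, Cenpf and S100a6, at log2 ratios of 2.89 to 3.94. Ccnb2, Ube2c, Birc5, Pclaf, Rrm2 and Cenpf are genes of dividing cells. Lgals1, a galectin of activated T cells, was found in all 43 cells, at 4364 CPM against 504. In Papain WT alone 4 of the 10 ranked among the 10 highest. All 5 genes of the list for dividing cells were at least 2-fold higher with Stmn2, with a median log2 ratio of 2.74, while 4.92% of the 14164 genes tested were at least 2-fold higher and their median was 0.02. Dividing cells without Stmn2 also held Lgals1 at a high level, 2961 CPM.

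Beside Angptl2 the leading genes were Cxcl2, Tnfrsf4, Il2ra, Tnfrsf9, 1500009L16Rik, Ctla4, Areg, Pdcd1, Stx11 and S100a6, at log2 ratios of 2.53 to 3.20. Cxcl2, a chemokine gene, rested on DPBS WT, where it was at 1958 CPM in the 12 T cells with Angptl2 against 23.6, while its log2 ratio in Papain WT was 1.17. Tnfrsf4 (OX40), Il2ra (CD25) and Ctla4 are costimulatory, growth and inhibitory receptors of regulatory and activated T cells. They were at 1107, 351 and 1003 CPM with Angptl2 in Papain WT, against 157, 37.5 and 148 CPM without. The list for dividing cells had 5 of 5 at least 2-fold higher, with a median of 2.02. Of the 8 genes of the ILC2 list, 7 were at least 2-fold higher with Angptl2, against 4.57% of all genes tested.

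Beside Igfbp7 they were Areg, Tnfsf11, Il1rl1, Lgals7, Pdcd1, Ltb4r1, Tnfrsf4, Tnfsf8, Rgs16 and Gata3, at log2 ratios of 2.88 to 4.11. Areg, which encodes the epidermal growth factor receptor ligand amphiregulin, was at 664 CPM in T cells with Igfbp7 and at 29.1 CPM in those without. Tnfsf11, which encodes RANKL, was at 360 against 16.2 CPM, and Lgals7, a galectin gene, at 162 against 3.24 CPM. All 8 genes of the ILC2 list were at least 2-fold higher, with a median log2 ratio of 2.79, against 3.92% of all genes tested with a median of 0.05. The list for dividing cells again had 5 of 5, with a median of 1.47, and dividing cells were 14 of the 77 T cells (18.2%) against 2.56%. The 7 natural killer genes had none at least 2-fold higher, and Cd8a stood at 5.02 against 138 CPM.

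Igfbp4 was among the 5 genes with the lowest ratio for each of the 3 genes. It was at 16.6 CPM in T cells with Stmn2 against 340 without, at 14.9 against 343 for Angptl2, and at 32.6 against 341 for Igfbp7. Dapl1 was among those 5 for each as well, at 17.6 against 158, 6.08 against 160 and 16.7 against 159 CPM. These ratios set few, deep cells against many shallow ones, and they share the cells without a UMI.

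**Figure D4:**
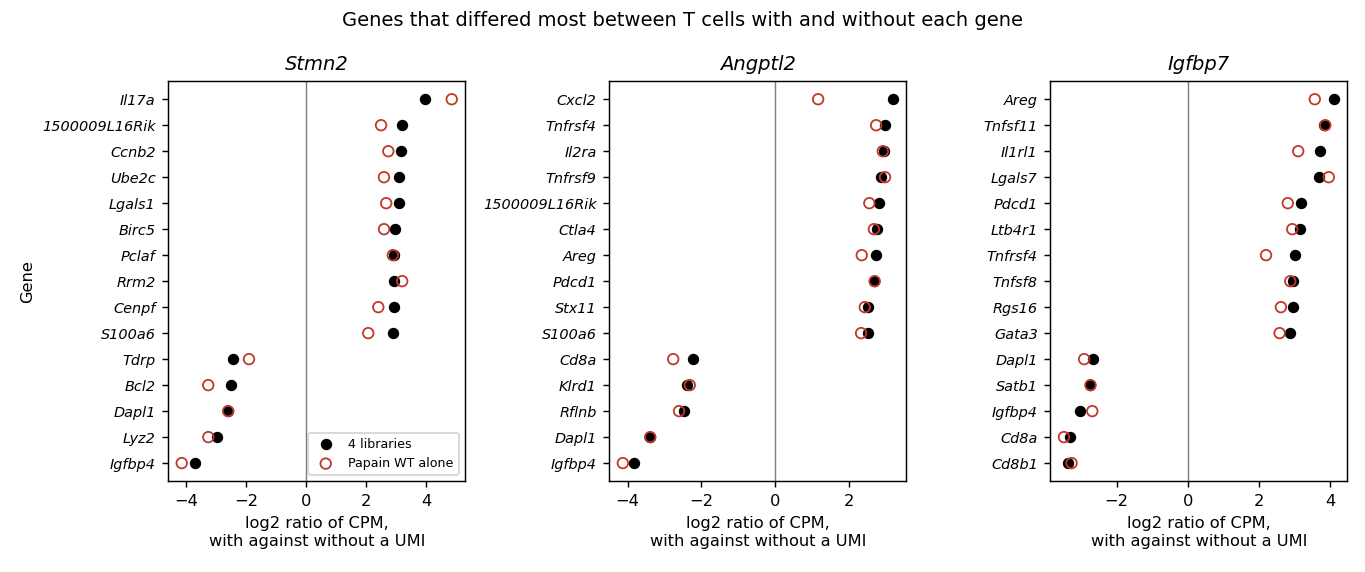
Log2 ratio of pooled CPM with 10 added (x axis) between T cells with and without each gene, for the 10 genes with the highest and the 5 with the lowest ratio (y axis); filled points pool the 4 libraries and open circles are Papain WT alone. All of the genes shown lie on the same side of 0 in Papain WT, and Cxcl2 beside Angptl2 moves from 3.20 to 1.17.

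The genes found in the most similar cells, by the Jaccard index over all 25831 kept cells (cells with both over cells with either), were led by other genes for each of the 3. For Stmn2 they were 1700012B07Rik (0.105, 9 shared cells), Il17a (0.0966, 14), Cpe (0.0833, 6), Il22 (0.0769, 7) and 2210011C24Rik (0.0755, 12). For Angptl2 they were Tox2 (0.0871, 23), Ccr4 (0.0832, 39), Foxp3 (0.0740, 37), Pdcd1 (0.0733, 46) and Ncmap (0.0730, 23). For Igfbp7 they were Il13 (0.131, 25), Il5 (0.0968, 18), Il4 (0.0927, 19), Hlf (0.0904, 33) and Pdcd1 (0.0900, 56). These indices are low, and cells of a library share its depth.

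Most cells with 1 of the 3 genes did not hold the others. Stmn2 and Angptl2 shared 3 cells, which were 5.66% of the Stmn2 cells and 2.38% of the Angptl2 cells. Stmn2 and Igfbp7 also shared 3, which were 5.66% and 2.31%. Angptl2 and Igfbp7 shared 13, which were 10.3% of the Angptl2 cells and 10% of the Igfbp7 cells. In T cells these shared 12 cells, 13.95% of those with Angptl2, where 0.871% of all T cells held Igfbp7. That baseline pools the libraries, while 58 of the 86 T cells with Angptl2 were in Papain WT, where 2.63% of T cells held Igfbp7. Over all libraries Igfbp7 was at 56.8 CPM in T cells with Angptl2 against 4.20 CPM in those without. A single cell held all 3.

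Between libraries, over all kept cells, the ratios repeat the values that chose the genes and are given for their size. Papain KO against Papain WT had a log2 ratio of CPM of -0.28 for Stmn2 (conditional exact binomial interval -0.65 to 0.09), -2.54 for Angptl2 (-3.29 to -1.86) and -2.85 for Igfbp7 (-3.36 to -2.38). So 2 of the 3 genes were past 2-fold, where 6.39% of the 15582 genes with at least 10 UMIs were. Stmn2 did not differ between these libraries beyond counting error in all kept cells, while in T cells its log2 ratio was -0.46 (-0.84 to -0.09). By number of T cells with Stmn2, 15 in Papain KO and 14 in Papain WT, the log2 ratio of the shares was 0.44 (-0.71 to 1.60).

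DPBS KO against DPBS WT had log2 ratios of -2.71 for Stmn2 (-4.09 to -1.58), -1.08 for Angptl2 (-2.57 to 0.24) and 0.46 for Igfbp7 (-0.65 to 1.58). There 2 of the 3 were past 2-fold, against 5.2% of all genes, and only the Stmn2 interval excluded 0. By number of cells Stmn2 did not differ there, with a log2 ratio of the shares of -0.78 (-2.64 to 0.83), since 4 cells of DPBS WT held 48 of its 59 UMIs.

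Papain WT against DPBS WT had log2 ratios of 1.49 for Stmn2 (1.05 to 1.95), 3.04 for Angptl2 (2.35 to 3.81) and 4.70 for Igfbp7 (3.96 to 5.55), all past 2-fold, against 9.16% of all genes. Papain KO against DPBS KO had 3.92 for Stmn2 (2.83 to 5.27), 1.58 for Angptl2 (0.28 to 3.07) and 1.39 for Igfbp7 (0.52 to 2.33), again all past 2-fold, against 9.09%. The comparisons share libraries with each other. By number of cells, Stmn2 had log2 ratios of 0.61 (-0.52 to 1.80) and 1.85 (0.36 to 3.63) in these 2 comparisons, and only the second interval excluded 0.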

How the data were processed

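The deposited files hold raw UMI counts per gene and cell barcode. Per the file headers they were written by software version 3.1.0, and the submitters' processing notes name Cell Ranger and mm10. The 3 genes, the lists and the marker classes were chosen with earlier results of these data known.

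Barcodes with over 200 genes and under 15% mitochondrial UMIs were kept, and the highest-scoring barcodes by Scrublet (scanpy 1.11.5) were removed at 0.8% per 1000 barcodes. A barcode took the class with the largest share of its markers detected, if at least 40%. Levels are UMIs per 1000000 (CPM) with exact Poisson intervals, shares have Clopper-Pearson intervals (95%, scipy 1.17.1), and UMIs cluster in few cells, so the true errors are larger. A share of 0 was given the limit of 3 counts over the cells, and a level of 0 the upper bound of its Poisson interval. The code for log2 ratios and their intervals recovered known values on simulated independent counts. That simulation did not cover the Poisson and Clopper-Pearson intervals or UMIs that cluster in few cells. TMM factors came from edgeR 4.0.16 (R 4.3.3). Positions come from GENCODE M21, which held 30934 of the 31053 gene identifiers. The named genes were the 3 genes, fixed lists of their families, the 10 highest and 5 lowest ratios among genes in at least 30% of the cells and at least 5 of them, and the 5 highest Jaccard indices. No p-value was computed. Some members of these lists are not reported here.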

Additional observations from a re-analysis of the deposited data

Results flagged for a closer look

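Over all kept cells the genotype ratio of Igfbp7 had opposite signs under the treatments. The log2 ratio of KO against WT was -2.85 with papain, from 40 and 383 UMIs, and 0.46 with DPBS, from 16 and 15 UMIs. The DPBS interval (-0.65 to 1.58) held 0, each ratio rests on 1 library per group, and the difference was not tested. In T cells alone, which held 79.96% of the UMIs, both ratios were negative, at -3.75 with papain and -0.41 with DPBS, the latter from 2 and 4 UMIs.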

How the results depend on the processing

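No log2 ratio between libraries changed direction with doublets kept, without the gene and mitochondrial filter, with TMM factors or without the cell with the most UMIs. Without that cell Stmn2 fell to 0.601 CPM in DPBS WT, 1.85 in Papain WT and 1.42 in Papain KO, and with doublets kept Igfbp7 in Papain WT was at 5.26 CPM. With the libraries ordered as DPBS WT and KO, then Papain WT and KO, thinning to 1000 UMIs gave shares of all kept cells of 0.0274%, 0.0144%, 0.0657% and 0.0792% for Stmn2, 0.0265%, 0.0147%, 0.177% and 0.0270% for Angptl2, and 0.0287%, 0.0260%, 0.309% and 0.0441% for Igfbp7. Counting cells with at least 2 UMIs gave, in the same order, 0.0926%, 0.0185%, 0.135% and 0.221% for Stmn2. For Angptl2 it gave 0%, 0%, 0.364% and 0.0369%, and for Igfbp7 0.0132%, 0.0369%, 0.700% and 0.111%. Among those cells T cells were 96.7% for Stmn2, 86.2% for Angptl2 and 78.7% for Igfbp7. In Papain WT alone, an alternative chosen after seeing the data, 4 of the 10 genes leading beside Stmn2 stayed among its 10 highest. No paired analysis was possible because each group holds 1 library. Cells with 1 UMI and libraries with under 20 UMIs of a gene limit the depth behind every share above.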
